A study of Arabidopsis thaliana with 4 samples.

Results

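AT4G37290 and AT2G23270 encode precursors of small secreted peptides of the PIP (PAMP-induced secreted peptide) family in Arabidopsis. They were selected on their mean signal in nlp7-1 relative to wild-type roots, which was lower for both. Each is read by 1 probe set, and they are 2 of the 13286 genes whose probe sets could be placed on a locus. Steady-state transcript levels were measured on 4 Affymetrix ATH1 arrays, in whole roots cut from the hypocotyl at 5 dai. The groups were the nlp7-1 mutant (2 samples) and wild type (2 samples), both labelled as the Col-0 ecotype and grown without treatment on agar with MS salts. NLP7 (NIN-LIKE PROTEIN 7) is a transcription factor of nitrate signalling. Each sample was a pool of about 60 roots, called a biological replicate in the series design text.

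PIP precursors are short proteins with an N-terminal signal peptide, which sends them into the secretory pathway, and a conserved C-terminal stretch from which the active peptide is cut. The family takes its name from its induction by pathogen-associated molecular patterns, the microbial molecules that plants sense at the cell surface. PIP1, its best studied peptide, acts outside the cell through the receptor kinase RLK7 and amplifies immune responses. The files and the gene table used here name AT4G37290 and AT2G23270 only by locus.

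All values below are MAS5 signals, the linear intensity summarised over the probes of a probe set. Log2 signals were fitted by genotype with limma, a linear model that shares information on the spread across probe sets, over the 13648 probe sets whose mean log2 signal reached a filter level of 59.4 in signal. P-values were adjusted over all of these by the Benjamini-Hochberg method, and a probe set was called at an adjusted p under 0.05. No probe set was named for NLP7, so the genotype labels could not be checked on the mutated gene. Of 14 root marker genes, 3 had a named probe set, and PYK10, which encodes an abundant root beta-glucosidase, had signals from 12307 to 12794 over the 4 arrays. The 3 measured root markers summed to 15051 and 14511 in nlp7-1 and to 15477 and 15093 in wild type, and PYK10 made up most of each sum. EXPA7 had 607 and 515 in nlp7-1, against 571 and 367 in wild type (log2 change 0.29 ± 0.22, nlp7-1 minus wild type, SE). AT5G66390 had 1895 and 1688 in nlp7-1, against 2113 and 1971 in wild type (log2 change -0.19 ± 0.11). Because whole roots were measured, fewer cells of a type and less RNA per cell cannot be told apart in any difference below.

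AT4G37290 lies on chromosome 4 (probe set 253044_at). Its signal was 28.5 and 39.3 in nlp7-1 roots, against 178 and 123 in wild-type roots. Both mutant samples were below both wild-type samples, and the groups did not overlap. The means were 33.9 ± 7.7 in nlp7-1 and 151 ± 38 in wild type (SD, n = 2 each). The log2 change was -2.15 ± 0.26 (nlp7-1 minus wild type, SE of the fit), a 4.43-fold lower signal in nlp7-1. Taking each mutant sample against each wild-type sample, 4 comparisons in all, the signal was between 3.14-fold and 6.25-fold lower in the mutant sample.

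AT2G23270 lies on chromosome 2 (probe set 245082_at). It had signals of 38.6 and 40.8 in nlp7-1 roots, against 114 and 178 in wild-type roots. Here too the groups did not overlap, and the mutant samples lay close together while the wild-type samples were further apart. The means were 39.7 ± 1.5 in nlp7-1 and 146 ± 45 in wild type (SD, n = 2 each). The log2 change was -1.84 ± 0.25 (SE), a 3.59-fold lower signal in nlp7-1, and the same 4 comparisons gave 2.80-fold to 4.60-fold lower signals. The genes were chosen for this contrast, so these values describe them and no test is given. A difference without overlap and lower in nlp7-1 was present in 20.9% of the 13648 probe sets kept for the fit, while 0.630% were lower and 1.64% higher at a limma adjusted p under 0.05.

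**Figure D1:**
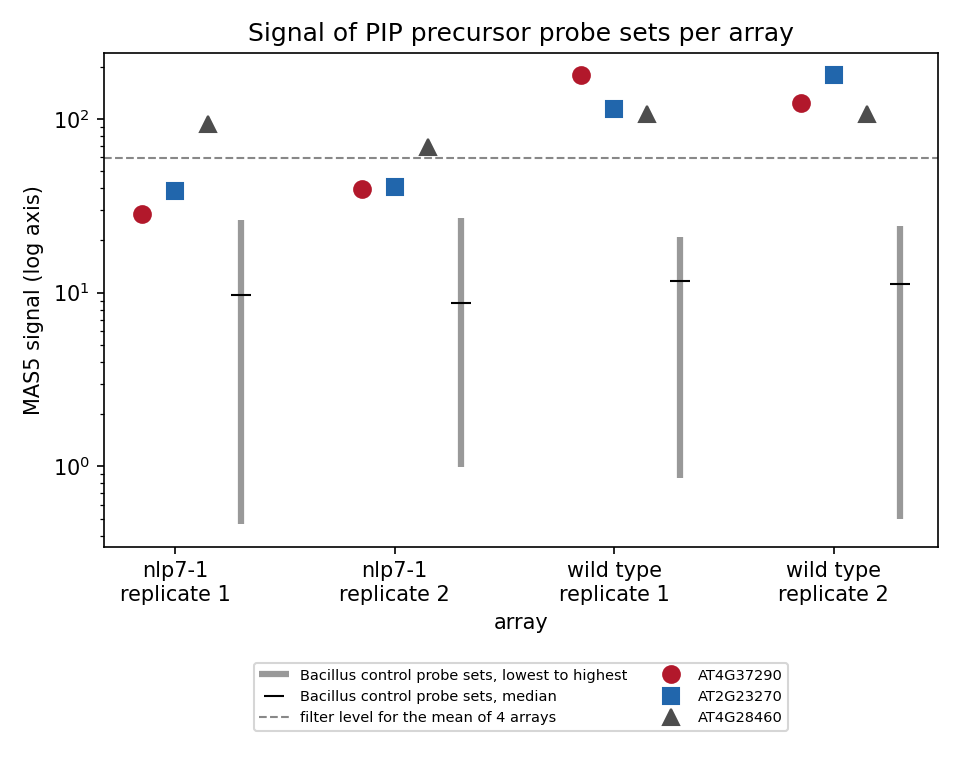
MAS5 signal (log axis) of the probe sets of AT4G37290, AT2G23270 and AT4G28460 on each array, with the lowest, median and highest of the 27 Bacillus control probe sets and the filter level of 59.4 for the mean of 4 arrays. AT4G37290 and AT2G23270 lie below the filter level in both nlp7-1 samples and above it in both wild-type samples, while AT4G28460 lies above it in all 4.

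The wild-type samples did not rank the genes alike. Wild type replicate 1 had the higher signal of AT4G37290 and the lower signal of AT2G23270, and wild type replicate 2 the reverse. The wild-type replicates differed 1.44-fold for AT4G37290 and 1.56-fold for AT2G23270. In nlp7-1 the replicates differed 1.38-fold for AT4G37290 and 1.05-fold for AT2G23270.

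Replicate differences can be read against the 500 kept probe sets nearest in mean signal to each gene. For AT4G37290 these had a median replicate difference of 0.19 in nlp7-1 and 0.25 in wild type (log2). The replicates of AT4G37290 differed by 0.47 in nlp7-1 and 0.53 in wild type, which was exceeded by 11.4% of the 500 in nlp7-1 and 16.8% in wild type. For AT2G23270, its difference of 0.08 in nlp7-1 was exceeded by 77.2% of its own 500, and its difference of 0.64 in wild type by 7.80%. Both genes therefore had wider wild-type spreads than most probe sets of their level, and AT2G23270 had a narrow spread in nlp7-1. The log2 changes of the 500 ran from -0.43 at the 5th percentile to 0.54 at the 95th around AT4G37290, and from -0.51 to 0.48 around AT2G23270. They are given as the scale of changes at that level, since the changes of the PIP genes themselves chose them.

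Among all 13648 kept probe sets, AT4G37290 had the decrease ranked 7 and AT2G23270 the one ranked 11. Among the 7371 that name 1 placed gene, they ranked 4 and 7. The gap between the lowest wild-type and the highest mutant sample was 3.14-fold for AT4G37290 and 2.80-fold for AT2G23270, sizes that 6 and 10 kept probe sets reached, the gene itself included. These ranks come from the contrast that chose the genes and support nothing further.

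Both genes were near the low end of the array in the mutant. The ATH1 array carries probe sets for Bacillus genes, which no plant transcript should match. The 27 of them had signals of at most 26.3 and 27.0 on the nlp7-1 arrays and at most 20.9 and 24.3 on the wild-type arrays. Probe sets differ in how strongly they bind, so this is only a gauge of where the low end lies. In nlp7-1 replicate 1, AT4G37290 at 28.5 was just above the highest of these controls, and the other 3 mutant values of the 2 genes were 38.6 to 40.8. No detection calls were used, so whether the mutant signals exceed background was not tested. The geometric means over the 4 arrays, 70.4 for AT4G37290 and 75.2 for AT2G23270, passed the filter at 59.4 only through the wild-type samples.

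A fold with so low a denominator depends on how the low end is treated. With a pseudocount of 32 added to every signal, the log2 change of AT4G37290 was -1.46 ± 0.18 (SE), or 2.75-fold lower, and that of AT2G23270 was -1.29 ± 0.19, or 2.44-fold lower. With a pseudocount of 100 the changes were -0.90 ± 0.12 (1.86-fold lower) and -0.80 ± 0.13 (1.75-fold lower), in the same order of genes. A pseudocount makes the log2 change of a low gene smaller in size, and it cannot reverse the order of samples. Which setting lies nearest to the true change was not tested. AT4G37290 had the larger decrease at all 3 settings. Whether the genes differ in their decrease was not tested. Without a pseudocount, their sample-by-sample folds overlapped, at 3.14 to 6.25 for AT4G37290 and 2.80 to 4.60 for AT2G23270.

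**Figure D2:**
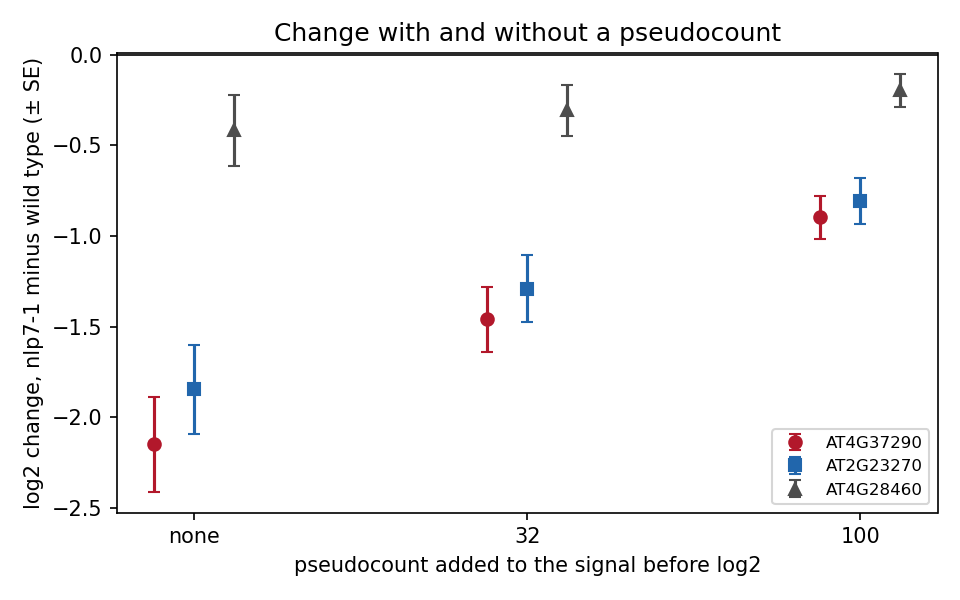
Log2 change between nlp7-1 and wild type (points, with bars of ± 1 SE from the fit) for 3 genes with no pseudocount and with 32 or 100 added to the signal before log2. The changes of AT4G37290 and AT2G23270 shrink from -2.15 and -1.84 with none to -0.90 and -0.80 with 100, and AT4G28460 stays nearer to 0 throughout.

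AT4G28460 on chromosome 4 was followed as a further family gene. It is the locus known as the PIP1 precursor, an assignment from general knowledge that the gene table does not give. Its signal was 93.2 and 68.6 in nlp7-1 roots, against 107 and 107 in wild-type roots. Both mutant samples were lower without overlap, a pattern that 20.9% of kept probe sets shared. The log2 change was -0.42 ± 0.20 (SE), and it did not pass (limma adjusted p = 0.434, unadjusted p = 0.0733). The change was -0.64 without nlp7-1 replicate 1 and -0.20 without nlp7-1 replicate 2. Whether AT4G28460 changed less than AT4G37290 and AT2G23270 was not tested, because those were chosen for their change. RLK7 (AT1G09970), the receptor gene, had no named probe set and is not analysed here.

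Genes of other secreted peptide families were read together with AT4G28460. The list held 102 genes named by symbol as IDA, CLE, CEP, RALF, PSK, RGF, EPF or related peptides, AT4G28460 included. Of these, 17 had a named probe set and 9 passed the filter. In limma, 0 of the 9 were called in either direction, against 2.27% of all kept probe sets. At an unadjusted p under 0.05 the count was also 0, against 13.2%. With 9 genes, counts of 0 are near these shares and say little about the list. Their median log2 change was 0.18, beside 0.0002 over all kept probe sets, and their changes ran from -0.42 in AT4G28460 to 0.42 in RALFL27.

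The members with the smallest p were RALFL27, RALFL18, AT4G28460 and RALFL32. RALF peptides are cysteine-rich signals that raise the pH outside the cell and slow root growth. RALFL27 had signals of 494 and 371 in nlp7-1, against 359 and 283 in wild type (log2 change 0.42 ± 0.19, limma adjusted p = 0.406). Its groups did not overlap, and 23.2% of kept probe sets were likewise higher in nlp7-1 without overlap. RALFL18 had 54.1 and 55.1 in nlp7-1, against 69.1 and 76.5 in wild type (log2 change -0.41 ± 0.19, limma adjusted p = 0.419). Both mutant signals of RALFL18 lay below the filter level, so it was kept and tested only through its higher wild-type samples. RALFL32 had a log2 change of 0.17 ± 0.10 (limma adjusted p = 0.568). The 8 members below the filter, among them CLE40 and CLE44, had no test. CLE40, whose peptide restrains stem cells at the root tip, had signals of 10.2 and 10.5 in nlp7-1 and 14.6 and 14.5 in wild type, within the range of the Bacillus controls.

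Receptor kinases at the cell surface perceive such peptides and microbial patterns, and pass the signal to cytoplasmic kinases. Of 22 listed genes of this kind, 5 had a named probe set, 4 passed the filter and 0 were called in limma, against 2.27% of all kept probe sets. Their unadjusted p was under 0.05 in 0 cases, against 13.2% of all kept probe sets. With 4 genes, counts of 0 are near these shares and say little about the list. Their median log2 change was -0.04. BIK1, a cytoplasmic kinase that receptor complexes activate, had 446 and 402 in nlp7-1, against 517 and 466 in wild type (log2 change -0.21 ± 0.12, limma adjusted p = 0.541). FER, the receptor kinase of RALF peptides, had 1187 and 1159 in nlp7-1, against 1061 and 1086 in wild type (log2 change 0.13 ± 0.10, limma adjusted p = 0.652). AT4G08850 and PSY1R, listed as receptor kinases, had log2 changes of -0.18 ± 0.15 and 0.11 ± 0.13. EFR, the receptor of bacterial elongation factor Tu, was below the filter, at 2.63 and 1.58 in nlp7-1 and 5.10 and 13.7 in wild type.

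PIP precursors are known as genes of pattern-triggered immunity, so a list of 39 genes of that response was read as well. A named probe set existed for 5, and 4 passed the filter. Calls in limma numbered 0 of these 4, against 2.27% of all kept probe sets. The unadjusted p was under 0.05 for 1 of them, against 13.2% of all kept probe sets. With 4 genes, these counts say little about the list. The median log2 change was 0.06. The gene with an unadjusted p under 0.05 was AT1G26380, a FAD-linked oxidase gene. It had signals of 22.0 and 43.6 in nlp7-1, against 133 and 351 in wild type. AT1G26380 lies in the chromosome 1 stretch from AT1G20910 to AT1G27530, whose named genes 1 alternative left out. That alternative therefore gave no value for it, and the probe sets called in limma fell from 310 to 105. Its groups did not overlap, a pattern lower in nlp7-1 that 20.9% of kept probe sets shared. Its log2 change was -2.80 ± 0.51 (limma adjusted p = 0.0509). Both mutant signals lay below the filter level of 59.4, so it was kept through the wild-type samples, and 22.0 was under the highest Bacillus control of that array, 26.3. With pseudocounts of 32 and 100 its log2 change was -1.98 and -1.29 (limma adjusted p = 0.0625 and 0.0954). It did not pass either without nlp7-1 replicate 1 (limma adjusted p = 0.110), with no filter (0.0746) or when eBayes had no trend (0.0808). It passed with median centring (limma adjusted p = 0.0399), with quantile normalization (0.0498), and without nlp7-1 replicate 2 (0.0479), wild type replicate 1 (0.00290) or wild type replicate 2 (0.0330), where its log2 change was -3.30, -3.50 and -2.10.

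The other 3 tested members had changes closer to 0. WRKY22, a transcription factor gene downstream of pattern receptors, had 89.6 and 88.4 in nlp7-1, against 93.8 and 96.8 in wild type (log2 change -0.10 ± 0.15, limma adjusted p = 0.843). WRKY53, another WRKY factor gene of stress and senescence, had 102 and 46.5 in nlp7-1, against 82.7 and 41.8 in wild type, and its groups overlapped (log2 change 0.23 ± 0.46). AT1G14550 had a log2 change of 0.34 ± 0.22 with overlapping groups. PDF1.2, a defensin gene, was below the filter in all 4 samples. Of 22 jasmonate genes, 0 had a named probe set.

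**Figure D3:**
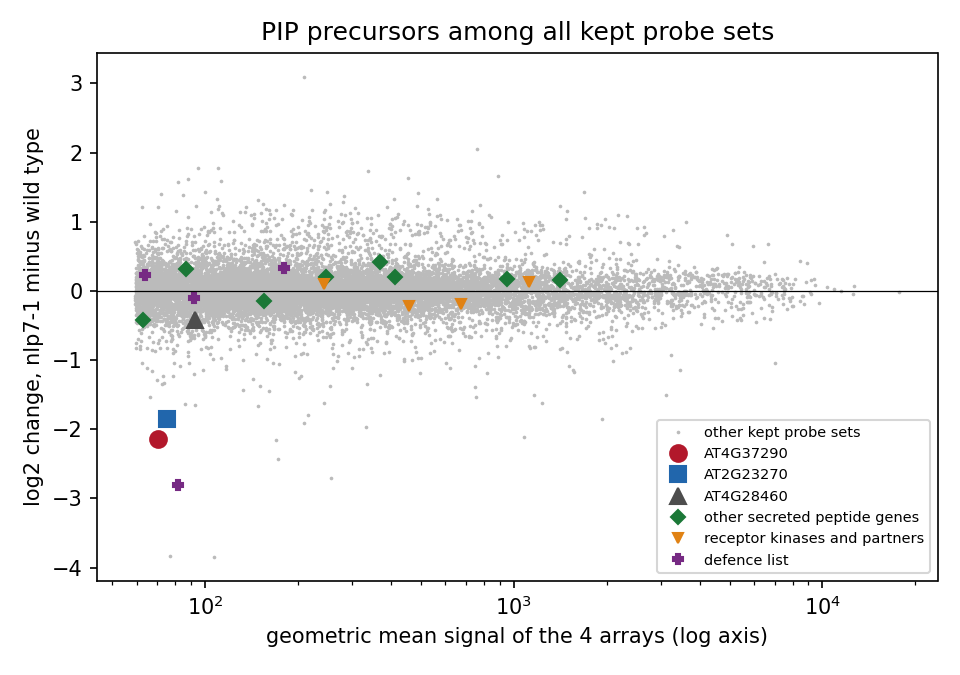
Log2 change between nlp7-1 and wild type against the geometric mean signal of the 4 arrays (log axis) for the 13648 kept probe sets, with genes of the peptide, perception and defence lists marked. AT4G37290 and AT2G23270 sit at mean signals of 70.4 and 75.2 with changes near -2, and of the other marked genes AT1G26380 alone lies below them.

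Some transcripts had a profile like those of the PIP genes over the 4 arrays. Likeness was the Euclidean distance between log2 profiles centred on their own mean, taken to the average profile of AT4G37290 and AT2G23270 over 7369 named probe sets. The nearest were AT4G12500, AT3G09405, AT1G70880, OSM34, AT2G29340 and PIFI, at distances of 0.39, 0.46, 0.46, 0.66, 0.68 and 0.68. The distance between AT4G37290 and AT2G23270 themselves was 0.92. Of the named probe sets, 6 lay nearer to AT4G37290 than AT2G23270 did, and 23 lay nearer to AT2G23270 than AT4G37290 did.

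Taken alone, AT4G37290 was nearest to AT4G12500, a lipid-transfer-protein-like gene (distance 0.35). AT4G12500 had signals of 62.2 and 104 in nlp7-1, against 373 and 345 in wild type. Both genes had the higher wild-type value in replicate 1 and the higher mutant value in replicate 2. AT1G70880 and AT4G12490 followed, at 0.78 and 0.82.

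AT2G23270 was nearest to AT3G09405 (0.26), AT5G38900 (0.39) and AT1G70880 (0.48). AT3G09405 had signals of 46.7 and 50.9 in nlp7-1, against 131 and 175 in wild type. AT5G38900 had 95.1 and 99.4 in nlp7-1, against 217 and 327 in wild type. In all 3 genes the mutant samples were close and wild type replicate 2 was the highest sample, as in AT2G23270, except that the mutant samples of AT1G70880 were further apart, at 90.1 and 148. With 4 arrays in 2 genotypes, any gene with a similar decrease lies near, so these distances are a description.

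**Figure D4:**
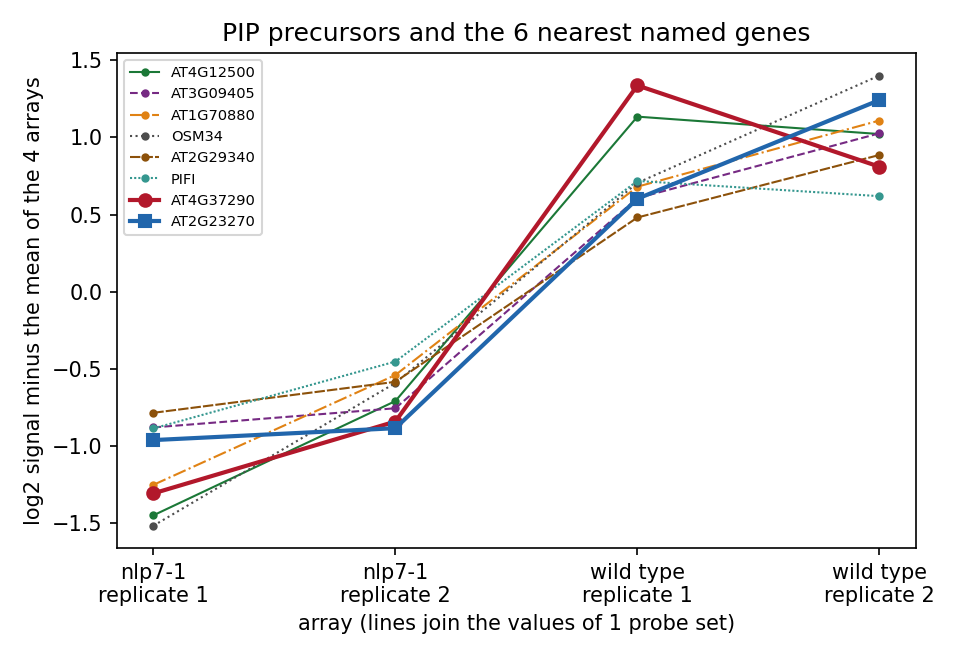
Log2 signal minus the mean of the 4 arrays for AT4G37290, AT2G23270 and the 6 named probe sets nearest to their average profile, with 1 line per probe set. All 8 are lower in both nlp7-1 samples than in both wild-type samples, and they differ in which wild-type sample is the higher.

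The measured genes next to each PIP locus were read as well. Around AT4G37290, the 3 nearest genes on each side with a named probe set kept by the filter lay 4 to 39 protein-coding genes away. Their log2 changes ran from -0.53 to 0.24, and 0 of the 6 passed in limma (smallest adjusted p = 0.168), against 2.27% of all kept probe sets. The lowest was AT4G37550, at 90.5 and 92.2 in nlp7-1, against 133 and 130 in wild type.

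Around AT2G23270 the 6 neighbours lay 2 to 18 genes away, with log2 changes from 0.02 to 1.04. GH3.3, the gene of an enzyme that joins auxin to amino acids, lies 10 genes before AT2G23270. It was the only one of the 6 called, against 2.27% of all kept probe sets called in either direction and 1.64% called higher. GH3.3 rose 2.06-fold in nlp7-1 (328 and 368, against 148 and 193 in wild type, limma adjusted p = 0.0350). Its call was lost without nlp7-1 replicate 1 or 2 (limma adjusted p = 0.109 and 0.143), when eBayes had no trend (0.0608), and when named genes from AT1G20910 to AT1G27530 on chromosome 1 were left out (0.0556). The nearest of these neighbours, AT2G23300, had 67.6 and 68.4 in nlp7-1, against 69.5 and 59.0 in wild type. Genes closer to the PIP loci that have no named probe set, or only one below the filter, are not analysed here.

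**Figure D5:**
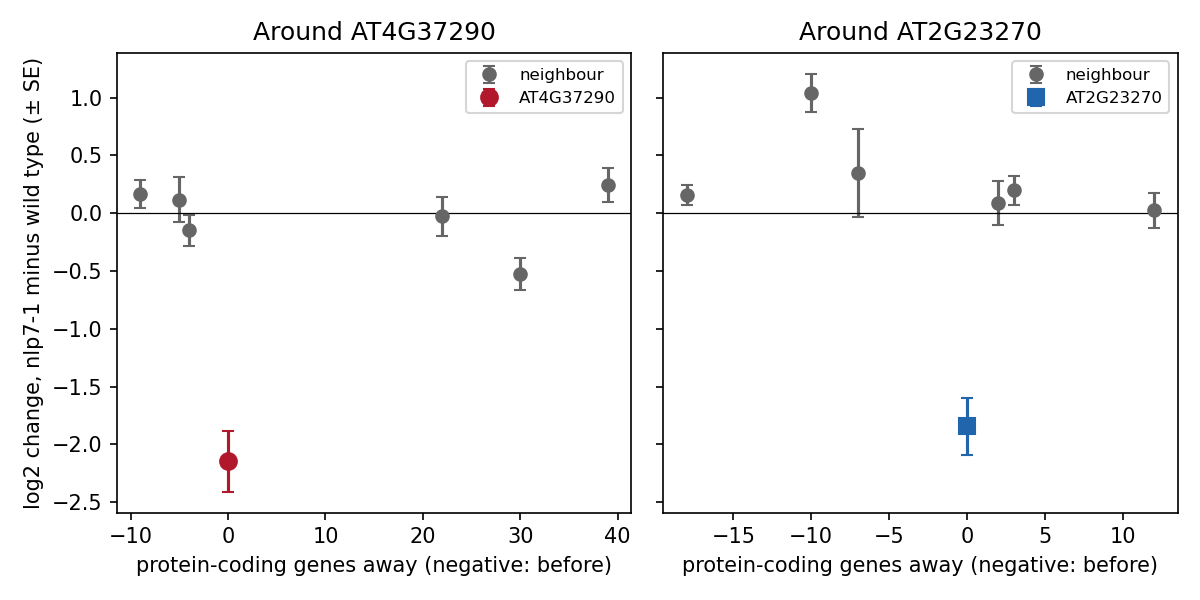
Log2 change between nlp7-1 and wild type (points, with bars of ± 1 SE from the fit) of AT4G37290 and AT2G23270 and of their neighbours, by distance counted in protein-coding genes. Neighbours are the 3 nearest genes on each side with a named probe set kept by the filter. The 12 neighbours lie between -0.53 and 1.04. The PIP genes, at -2.15 and -1.84, were chosen for their lower signal in nlp7-1, so their place below the neighbours shows little.

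Other measures also differed between the samples. Of 14 shoot markers, 3 had a named probe set, and they summed to 664 and 793 in nlp7-1, against 813 and 1009 in wild type. The markers did not move alike. RCA had 361 and 381 in nlp7-1, against 371 and 379 in wild type (log2 change -0.02 ± 0.11), and its groups overlapped. LHCB4.2 had 79.4 and 116 in nlp7-1, against 105 and 151 in wild type (log2 change -0.39 ± 0.25), also with overlap. In limma 0 of the 3 were called, and the largest difference was in LHCB4.1, a light-harvesting protein gene (log2 change -0.64 ± 0.21, limma adjusted p = 0.265), which passed without wild type replicate 1 (limma adjusted p = 0.0298, log2 change -0.90). The 25S rRNA control probe set read 6180 and 6248 in nlp7-1, against 5005 and 5318 in wild type. The part of either in the lower PIP signals was not tested.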

How the data were processed

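Root RNA of 2 nlp7-1 and 2 wild-type samples was hybridised to 1 array each. The authors deposited linear intensities, 1 per probe set, from MAS5 as the submitters' processing notes state (version not given in the sources used here). The mean after trimming 2% at each end was 250.0 on every array. Precision is limited by having 4 arrays.

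Of 22810 probe sets, 64 controls were not tested. The platform annotation of GEO gave 1 gene for 13513, several for 503 and none for 8730, and the RefSeq table (TAIR10.1) placed 13436. As no build is named, coordinates are not given.

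Log2 values, without pseudocount, were kept at or above the 40th percentile of mean log2 (signal 59.4, 13648 probe sets). Genotypes were compared two-sided with limma 3.58.1 in R 4.3.3 (lmFit, eBayes with trend, Benjamini-Hochberg over all kept probe sets), which was tested on simulated data. SEs come from this moderated fit. Summaries used Python 3.11.15.

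The members, lists and rules were chosen with earlier results of these data known. The text names the members, AT4G28460, up to 4 genes per list by smallest p, the 6 nearest profiles (3 per member) and 3 neighbours a side. CLE40, EFR and PDF1.2, LHCB4.1 and PYK10 were added as examples after their values were seen. The other measured root and shoot markers were then added beside them. Alternatives were pseudocounts, filters, normalizations, variance priors, a replicate block, a left-out chromosome 1 stretch, and each sample left out.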

Additional observations from a re-analysis of the deposited data

How the results depend on the processing

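The direction of AT4G37290 and AT2G23270 was the same under every alternative that gave a value for them. The lack of overlap between genotypes fixes this for a left-out sample. A filter at the median of mean signal dropped both genes, which stood at percentiles 43.0 and 44.3 of the probe sets without controls. Leaving out the filter, the eBayes trend or the chromosome 1 stretch, or adding the replicate block, cannot alter their log2 changes. Pseudocounts moved their log2 changes by more than 1 SD between replicates, to -1.46 and -0.90 for AT4G37290 and to -1.29 and -0.80 for AT2G23270 (32 and 100). Quantile normalization and median centring moved them by less. With each sample left out the log2 changes ran from -2.41 to -1.88 for AT4G37290 and from -2.16 to -1.53 for AT2G23270. That these stay within 1 SD was fixed in advance, since the SD is built from the same replicate differences. The number of probe sets differing in limma was 310, and it was 116 when eBayes had no trend and 105 without the named genes from AT1G20910 to AT1G27530. With a sample left out it ran from 14 to 770, being 14 without nlp7-1 replicate 1, 35 without nlp7-1 replicate 2 and 770 without wild type replicate 1. With the replicate number as a block it was 1290. The differences between replicates 1 and 2 correlated between the genotypes at r = 0.44 across kept probe sets, and with 2 pairs and no label on shared handling this does not show that the numbers pair the samples. Under the block, RALFL27 raised the count of called secreted peptide genes to 1 and AT1G26380 that of the defence list to 1. The defence count was also 1 with quantile normalization and with median centring, and 0 to 1 with a sample left out. The perception list stayed at 0 in every alternative run. LHCB4.1 passed under the block (limma adjusted p = 0.00324). With a sample left out, the log2 change of WRKY53 ran from -0.34 (without nlp7-1 replicate 1) to 0.79, and was also negative without wild type replicate 2 (-0.27). That of AT2G23300 ran from -0.033 (without wild type replicate 2) to 0.20. The causes were not tested. Jasmonate genes had no named probe set and gave no value.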
